A study of Mus musculus with 4 samples.

Results

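AP-1 and immediate early genes were followed over 8 days in cardiac mesenchymal progenitors (CMPs) transduced with OSKM, the reprogramming factors Oct4, Sox2, Klf4 and c-Myc. The genes were Fos, Fosb, Fosl1, Fosl2, Jun, Junb, Jund, Atf3, Egr1 and Ier3, taken by their names in the array files. These 10 genes, with 11 probes because Fosl2 has 2, stand among 22220 named genes on the array. All 10 passed the filter on dim probes, as did 16658 genes in all, and all 11 probes were well above background on every array. Fos lay 27.8-fold below the control at day 4, recovered in part at day 6 and fell again by day 8. Fosb and Junb were also lower on all 3 days, Atf3 was higher on all 3, and Jun, Jund, Fosl1 and Fosl2 stayed within 2-fold of the control throughout.

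CMPs are Sca-1+ cells from the hearts of adult C57BL/6 mice, and the study's methods give the atria as their source. The control was untreated CMPs, and the other samples were CMPs carrying OSKM (OSKM-CMPs) at days 4, 6 and 8. The study asked how the factors change gene expression in cells that go on to store lipid. Total RNA of each condition was hybridised to 1 single-colour array, so there is no replicate and no test between conditions. Before the experiment the cells grew on collagen I in medium with serum and basic fibroblast growth factor. The factors were the human genes, carried by Sendai virus added a day before day 0. From day 0 the infected cells were kept in reprogramming medium, which was renewed at regular intervals. No array of cells given virus without the factors was used here, so factors, virus, medium and days in culture cannot be told apart. The time between the last change of medium and lysis is not given in the sources used here. Each array is a whole culture, in which fewer cells of a type and less RNA per cell cannot be told apart.

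AP-1 is a dimer of basic leucine zipper proteins, most often a Fos family protein with a Jun family protein. Fos proteins cannot pair with each other and need a Jun partner, whereas Jun proteins can pair among themselves. Many of these genes are immediate early genes: growth factors, serum and stress switch them on within minutes, through serum response factor and CREB bound near their start sites, without new protein synthesis. Their mRNAs are short lived, so the level falls soon after the stimulus ends.

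The cells were checked against marker genes. Over all genes, the share at least 2-fold lower than the control was 9.57%, 11.5% and 11.6% at days 4, 6 and 8. The share at least 2-fold higher was 12.1%, 13% and 14.4%. All 10 Sca-1+ mesenchymal progenitor markers and all 6 cardiac transcription factors listed were above background on every array, though several were at least 2-fold lower than the control on each day. None of them passed 2-fold from day 4 to day 6 or from day 6 to day 8. At days 4, 6 and 8 the log2 change was -4.17, -4.85 and -5.01 for Gata4, -3.02, -3.52 and -3.29 for Tbx5, and -2.71, -3.15 and -3.03 for Nkx2-5. These were the 3 of the 6 cardiac factors at least 2-fold lower on each day. Another of the 6 went the other way, with 1 at least 2-fold higher at days 4 and 6. Of the progenitor markers, Tcf21 changed by -4.55, -4.79 and -4.65 and Ly6a, which encodes Sca-1, by 2.03, 2.31 and 2.69, and in all 4 were lower on each day. At days 4, 6 and 8, 2, 1 and 1 of the 10 were at least 2-fold higher. The summed signal of the progenitor markers was 1135 times the 75th percentile of the array in the control and 934, 831 and 841 times at days 4, 6 and 8. Adipocyte markers above background numbered 4 of 8 in the control and 8 of 8 on each later day, and their summed signal went from 8.12 to 47.9, 182 and 394. At day 4, 7 were at least 2-fold higher and 1 lower, and at days 6 and 8 all 8 were higher. Of the higher ones, Adipoq, Cfd, Cidec and Plin1 were not above background in the control. Leukocyte markers had a low and similar sum throughout, from 1.72 to 1.89, with 6 to 8 of the 8 measured above background and Laptm5 not above background on any array. Of the 8, 2 were at least 2-fold higher on each day. Another 1 was lower on each day, though not above background on both arrays compared. Endothelial markers summed to 1.93 in the control and 1.07 to 1.18 afterwards, with 6 of 6 above background in the control and 3 of 6 later. Cardiomyocyte markers summed to 12.0, 4.64, 6.71 and 4.16, with 2, 5, 5 and 4 above background and Actc1 not above it on any array. Of the 5 measured, 2 were at least 2-fold higher on each day, each above background on only 1 of the arrays compared. At days 4 and 8, 1 was lower. The part that these shifts have in the values of the AP-1 genes was not tested.

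The promoters of the genes that moved are shown first, because AP-1 genes are known for the signal response elements close to their start sites. A promoter entry in RefSeq (GRCm38.p6) was found for 8 of the 10 genes, all but Fosl1 and Egr1, and the 250 bases before the start were searched on both strands. The letters TGACG, the core of the cAMP response element, were found in 4 of the 8, namely Fos, Fosb, Junb and Atf3, against 17.9% of 32536 promoters of the same length. Those 4 are also the genes that differed at least 2-fold from the control on all 3 days, Fos, Fosb and Junb lower and Atf3 higher. Both the motif and this grouping were picked with sequences and values in view. The match is therefore a description, gets no test and says nothing on the direction of change. In Fos the first bases of the matches lie at -129 and -66 from the start, in Fosb at -60, in Junb at -106 and in Atf3 at -7. The sequences follow 5′ to 3′ in the direction of the gene, with the core in capitals on whichever strand it was found. Jun is shown as the comparison, since it has no such core in this window and stayed within 2-fold. Ier3 has no such core either, and it passed 2-fold at day 8. Jun does hold the letters tgacatca, a variant of the full element TGACGTCA that a search for exact TGACG could not find. For Fosb only the stretch around the core is given. Of its 250 bases, the 73 nearest the start lie inside the annotated gene, and the core at -60 is among them.
Fos, chr12:85473640-85473889, + strand: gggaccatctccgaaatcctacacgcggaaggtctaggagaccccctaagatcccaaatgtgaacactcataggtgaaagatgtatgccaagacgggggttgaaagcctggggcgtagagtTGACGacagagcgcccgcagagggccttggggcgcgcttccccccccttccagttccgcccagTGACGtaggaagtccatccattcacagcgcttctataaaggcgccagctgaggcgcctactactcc
Fosb, chr7:19310091-19310115, - strand: gagttgcgggTGACGcaagcgcggg
Junb, chr8:84978749-84978998, - strand: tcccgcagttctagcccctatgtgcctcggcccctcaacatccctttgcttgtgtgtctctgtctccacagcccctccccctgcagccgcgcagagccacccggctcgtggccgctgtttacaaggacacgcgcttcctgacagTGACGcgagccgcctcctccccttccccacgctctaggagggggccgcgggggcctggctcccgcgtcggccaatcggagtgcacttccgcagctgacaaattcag
Atf3, chr1:191183334-191183583, - strand: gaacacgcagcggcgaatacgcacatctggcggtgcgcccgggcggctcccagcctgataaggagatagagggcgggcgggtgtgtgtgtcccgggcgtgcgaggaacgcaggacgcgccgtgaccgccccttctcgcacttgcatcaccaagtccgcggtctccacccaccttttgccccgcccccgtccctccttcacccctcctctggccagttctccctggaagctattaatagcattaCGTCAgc
Jun, chr4:95052223-95052472, - strand: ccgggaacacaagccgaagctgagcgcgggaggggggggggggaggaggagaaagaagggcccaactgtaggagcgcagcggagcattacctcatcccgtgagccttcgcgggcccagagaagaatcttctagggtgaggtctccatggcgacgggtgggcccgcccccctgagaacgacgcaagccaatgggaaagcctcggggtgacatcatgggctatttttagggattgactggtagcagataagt

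The full cAMP response element TGACGTCA was in none of the 8 promoters and in 1.56% of all. The AP-1 site TGANTCA was likewise in none of the 8, against 6.73% of all, and the CArG box, to which serum response factor binds, in none against 1.48%. CCAAT was in Jun, Junb and Ier3, against 33.8% of all promoters, and TATAAA was in Fos alone, against 12.3%. No match means only that the letters are not in this window.

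Fos was the gene of the group that fell most. Its probe, at chromosome 12 from 86817900 to 86817959 (mm9, + strand), was printed as 10 spots on each array. The processed signal was 3514 in the control and 126, 600.4 and 262 at days 4, 6 and 8. Spots ranged from 3356 to 3677 in the control, from 111 to 140 at day 4, from 580.1 to 629 at day 6 and from 244 to 287 at day 8, after outlier spots had left 9, 10, 8 and 9 of them. No spot of one array overlapped the range of another. These are spots of the same RNA, so their spread is that of the array and not that of cultures.

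**Figure D1:**
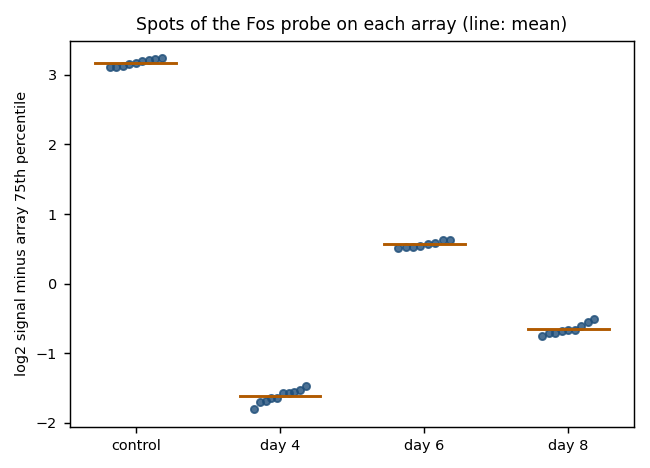
Log2 signal of every kept Fos spot, relative to the 75th percentile of its array, in the control and at days 4, 6 and 8. The spots of the 4 arrays form separate bands, with day 4 lowest, then day 8, day 6 and the control.

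Scaled to the 75th percentile of each array, the log2 change of Fos from the control was -4.80 ± 0.07, -2.61 ± 0.07 and -3.83 ± 0.07 at days 4, 6 and 8, where the error is 1 SD from the scanner software's error model. For Fos it is the error of a mean over spots taken as independent. It is therefore smaller than, and not comparable with, the error of genes read from 1 spot. The changes are 27.8-fold, 6.11-fold and 14.2-fold lower. Only 32 of 16658 genes had a lower change at day 4, 387 at day 6 and 119 at day 8. Between days 4 and 6 Fos rose 4.55-fold, a log2 change of 2.19 ± 0.07 that 0.534% of genes exceeded, and between days 6 and 8 it fell 2.32-fold. Each step in the order day 4, day 8, day 6, control was larger than 2 errors.

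Fosb, a second Fos protein that also pairs with Jun, was lower too but did not recover. Its probe lies at chromosome 7 from 19888168 to 19888227 (mm9, - strand). The signal was 696 in the control and 97.7, 130.04 and 112 at days 4, 6 and 8. The 3 OSKM-CMP arrays lay close together, and neighbours among them were within 2 errors of each other. The log2 change from the control was -2.83 ± 0.21, -2.48 ± 0.21 and -2.72 ± 0.21 in the same order, which is 7.11-fold, 5.59-fold and 6.57-fold lower. From day 4 to day 6 it differed by 0.35 ± 0.21.

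The Fos-related antigens, which lack the strong activation domain of Fos, moved little. Fosl1, on chromosome 19, had a signal of 964 in the control and 846, 823 and 672 at days 4, 6 and 8. Its log2 change was -0.18, -0.29 and -0.60, each with an error of 0.20, and no step between neighbours in the order exceeded 2 errors. The day 8 level of Fosl1 nevertheless lay more than 2 errors below the control. Fosl2, on chromosome 5, was read by 2 probes of very different brightness. The bright probe gave 5142 in the control and 3640, 3376 and 3608 afterwards, and the dim one gave 30.0, 24.5, 20.2 and 22.1. Both probes were highest in the control and lowest at day 6. Their mean log2 change was -0.39, -0.65 and -0.55, and neither probe reached 2-fold on any day.

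Jun, the main partner of Fos, stayed high. Its probe, at chromosome 4 from 94716928 to 94716987 (mm9, - strand), gave 10344 in the control and 7060, 8471 and 7642 on days 4, 6 and 8. The log2 change was -0.55 ± 0.20, -0.35 ± 0.20 and -0.51 ± 0.20, and neighbours in the order of levels were within 2 errors. Days 4 and 8 nevertheless lay more than 2 errors below the control. Jun had the same order of arrays as Fos, with day 4 lowest and the control highest, over a range of 0.55 on the log2 scale against 4.80 for Fos.

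Jund, a Jun protein that is made steadily and responds little to stimuli, was the flattest of the 10. The signal was 11953, 10898, 12228 and 13336, and the log2 change was -0.13, -0.03 and 0.08, each ± 0.20. Its sign depended on the scale, since quantile normalization gave 0.01, 0.17 and 0.32 and the array median as the scale gave -0.27, -0.16 and -0.19.

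Junb, a Jun protein that activates less strongly than Jun and can oppose it, followed the course of Fos on a smaller scale. Its probe, at chromosome 8 from 87501881 to 87501940 (mm9, - strand), read 417 in the control, then 89.1, 189 and 109.9 on the later arrays. The control was above all OSKM-CMP arrays, day 6 was between, and days 4 and 8 were within 2 errors. The log2 change was -2.22 ± 0.21, -1.20 ± 0.20 and -2.00 ± 0.21, or 4.67-fold, 2.30-fold and 4.00-fold lower. From day 4 to day 6 it rose 2.03-fold, a log2 change of 1.02 ± 0.21 that was 1.00, just below 2-fold, after quantile normalization and 0.73 with normexp background correction besides. From day 6 to day 8 it differed by -0.80 ± 0.21.

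Atf3 was the one gene of the group at least 2-fold above the control, and it was so on all 3 days. It encodes a stress-induced zipper protein that pairs with Jun proteins and, as a dimer with itself, represses transcription. Its probe, at chromosome 1 from 192994547 to 192994606 (mm9, - strand), read 53.6 in the control, then 294, 249 and 297. The control was lowest by a wide step, and the other arrays were within 2 errors of their neighbours in the order. The log2 change was 2.46 ± 0.22, 2.16 ± 0.22 and 2.39 ± 0.22, which is 5.50-fold, 4.45-fold and 5.25-fold higher. The signal in the control was the second dimmest among the 11 probes, and with normexp and quantile normalization the changes were 1.50, 1.27 and 1.44.

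Egr1, a zinc finger transcription factor induced with Fos through serum response factor, moved down, up and down around the control level. The signal was 12907 in the control, dropped to 5159 at day 4, reached 21716 at day 6 and returned to 10006 on the last day. Day 6 was the highest array and day 4 the lowest, and all steps in the order exceeded 2 errors. Its log2 change from the control was -1.32 ± 0.20 at day 4, 0.69 ± 0.20 at day 6 and -0.44 ± 0.20 at day 8, so only day 4, 2.50-fold lower, passed 2-fold. Between days 4 and 6 it rose 4.02-fold, and between days 6 and 8 it fell 2.19-fold.

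Ier3, a small protein linked to survival under stress and to ERK signaling, was at chromosome 17 from 35959528 to 35959587 (mm9, + strand). It read 1769 in the control, then 958, 1168 and 739. The log2 change was -0.88, -0.66 and -1.34, each ± 0.20, and it passed 2-fold at day 8, when it was 2.53-fold lower.

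**Figure D2:**
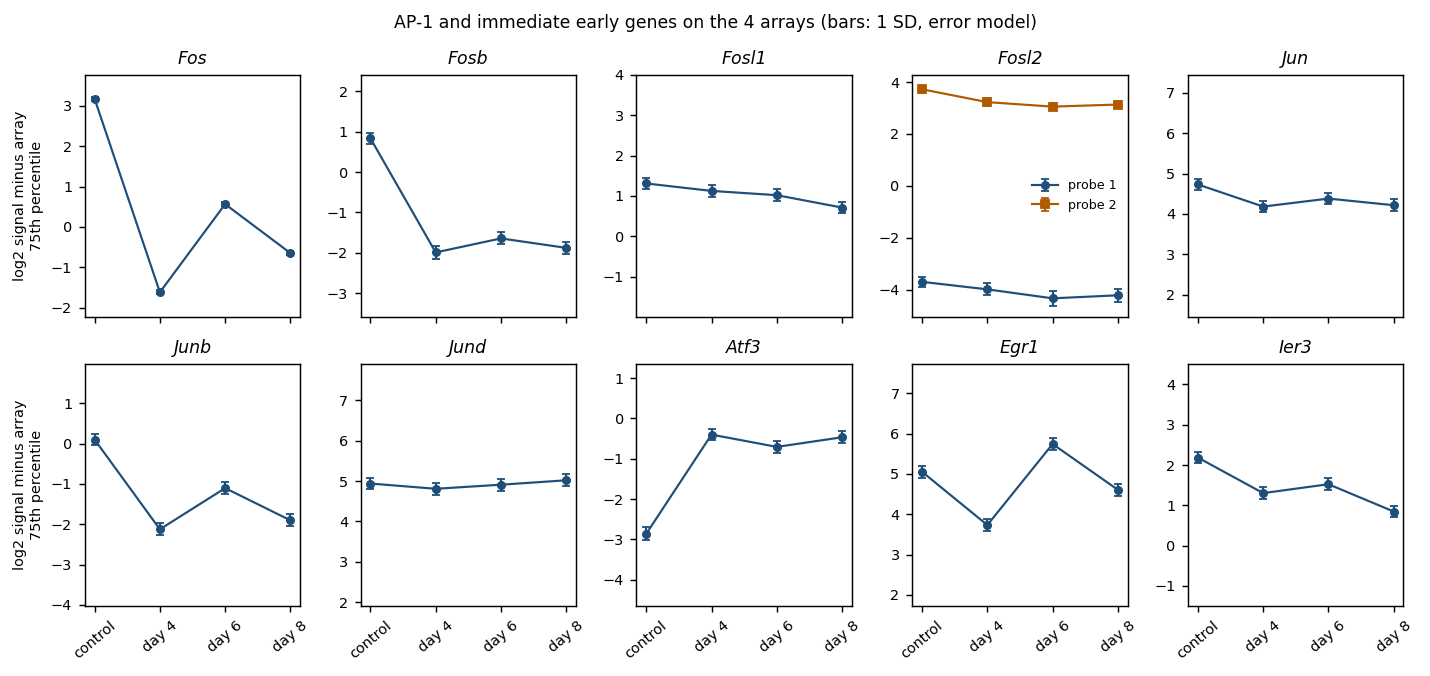
Log2 signal of the 10 genes relative to the 75th percentile of each array, in the control and at days 4, 6 and 8, 1 array each. Fos spans 4.80 on the log2 scale, Jund 0.21, and Atf3 has its lowest point in the control.

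Counted together, 4 of the 10 genes were at least 2-fold lower at day 4 (Egr1, Fos, Fosb and Junb), where 9.57% of all genes were, and 1 was higher (Atf3), where 12.1% were. Either way, that is 5 of 10 against 21.6%. The median log2 change was -0.71 over the 10 and -0.01 over all genes. At day 6, 3 were lower (Fos, Fosb and Junb) against 11.5% of genes and 1 was higher against 13%, or 4 either way against 24.5%, with medians of -0.50 and -0.04. At day 8, 4 were lower (Fos, Fosb, Ier3 and Junb) against 11.6% and 1 was higher against 14.4%, or 5 either way against 26%, with medians of -0.58 and -0.03. The count of lower genes stood above the background share on each day, and that of higher genes was close to it. Over all 4 arrays, 6 of the 10 genes had a range of at least 2-fold, against 33.3% of all genes, and the median range was 1.67 against 0.67.

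**Figure D3:**
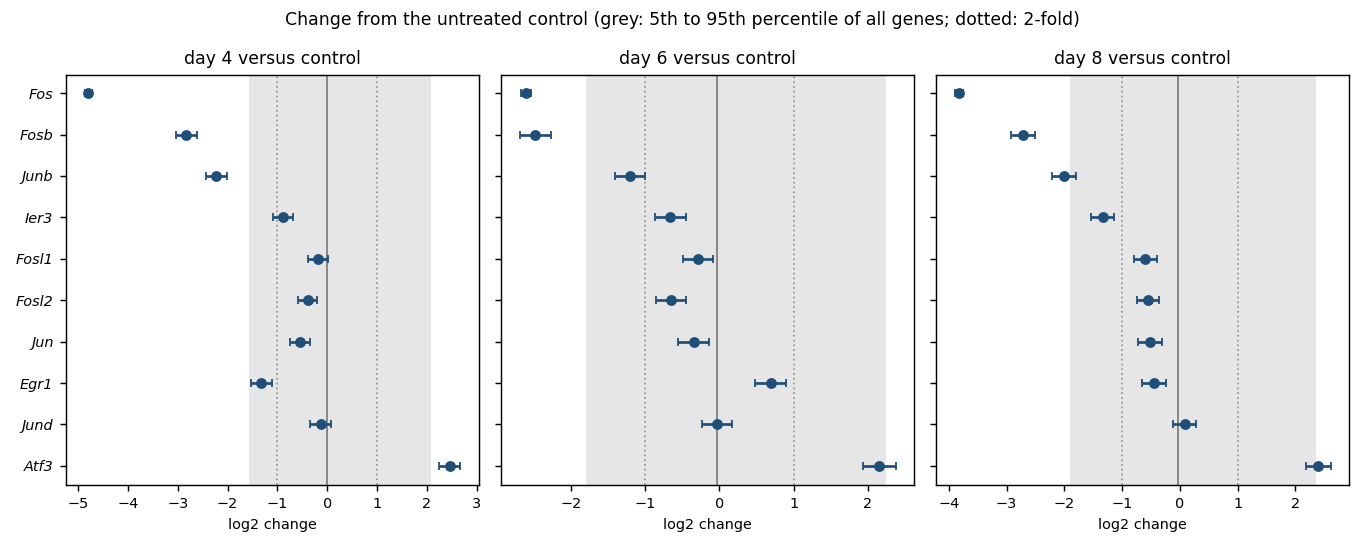
Log2 change of each of the 10 genes against the control at days 4, 6 and 8, with bars of 1 SD from the error model of the scanner software, grey bands from the 5th to the 95th percentile of all genes and dotted lines at 2-fold; the horizontal range differs between panels. Fos, Fosb and Junb lie left of -1 and Atf3 right of 1 on each day, and the remaining genes pass 2-fold only as Egr1 at day 4 and Ier3 at day 8.

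Between OSKM-CMP arrays, 3 genes rose from day 4 to day 6 (Egr1, Fos and Junb) and none fell, where 2.83% of all genes rose and 2.64% fell, 5.47% in all. From day 6 to day 8, 2 genes fell (Egr1 and Fos) and none rose, where 1.01% of genes fell and 2.44% rose, 3.45% in all. The medians were 0.21 and -0.27 over the 10 genes, and -0.03 and -0.01 over all genes. These steps share the day 6 array and the changes from the control share the control array, so they are not independent of one another. In 6 of the 10 genes the level was up from day 4 to day 6 and down from day 6 to day 8, whatever the size, against 20.4% of all genes.

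The down, up and down course of Fos and Egr1 was then sought across the array, a search chosen after their values had been seen. Among 13761 genes above background on all 4 arrays, 5 (0.0363%) changed at least 2-fold at each of the 3 steps. They were Fos, Egr1, Ier2, Nr4a1 and Ccn1, and the last 3 are on the list of other immediate early genes. Nr4a1 is a nuclear receptor, Ccn1 a matrix protein, and Ier2 a nuclear protein induced by growth factors. Their log2 changes at days 4, 6 and 8 were -2.47, -0.65 and -1.81 for Ier2, -1.07, 0.61 and -0.50 for Nr4a1, and -3.47, -1.75 and -3.47 for Ccn1. Without the condition on background, 17 of 16658 genes passed, and the 12 added were each not above background on at least 1 array. Quantile normalization left Nr4a1 short of 2-fold at a step, giving 4 genes, and the array median as the scale added Dusp1, giving 6.

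**Figure D4:**
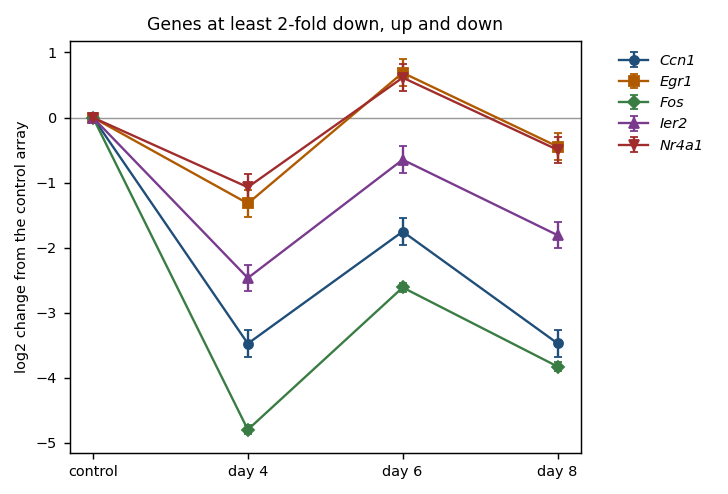
Log2 change from the control at days 4, 6 and 8 for the 5 genes that changed at least 2-fold at each step, with bars of 1 SD from the scanner software's error model. In all 5 the level at day 6 lies above those at days 4 and 8, and only Egr1 and Nr4a1 exceed the control there, by 0.69 and 0.61.

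Likeness of pattern was measured as the root mean square log2 difference over the 4 arrays, after centring, among 13760 genes above background on all 4. For Fos the nearest gene was Dusp1, a MAP kinase phosphatase, at 0.466, followed by Ccn1 at 0.501 and Speer1 at 0.509. For Egr1 they were Nr4a1 at 0.129, Tnfrsf18 at 0.236 and Apln at 0.382. Nearest to Jun, whose range was small, were Mafg at 0.0130, Sp2 at 0.0144 and Suds3 at 0.0168. Nearest to Atf3 were Fam25c at 0.0297, Rorb at 0.0502 and Naaa at 0.0766.

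The remaining genes of the pathway came from lists written by hand, each to be read against the shares of all genes above. Against the control at days 4, 6 and 8, these were 9.57%, 11.5% and 11.6% lower and 12.1%, 13% and 14.4% higher. The counts include genes that were not above background on 1 of the arrays compared, whose size is then not measured, and Mmp13, which at days 6 and 8 was not above background on either. These genes are pointed out where they are named. Genes not placed by the rule for named genes were named after their values had been seen. Of 25 other zipper partners measured, 6 were lower and 3 higher at day 4, 6 and 4 at day 6, and 5 and 4 at day 8, with medians of -0.28, -0.20 and -0.06. The small Maf proteins Maff and Mafk, which lack an activation domain, fell by 3.45 and 1.66 on the log2 scale at day 8 (Maff is also on the list of immediate early genes), and Atf4, of the integrated stress response, fell by 1.35. Maf, which has an activation domain, rose by 3.28 ± 0.18, and Batf2, which also pairs with Jun, rose by 1.42. Batf and Batf3 were the other 2 counted as lower at day 8, but neither was above background there, so no size is given. Ddit3, a stress-induced partner of C/EBP proteins, was higher, at 1.21. With normexp and quantile normalization, 4, 2 and 3 partners were lower on the 3 days, with medians of -0.29, -0.07 and -0.07.

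Of 40 other immediate early genes measured, 16 were lower and 7 higher at day 4, with a median of -0.71. At day 6 it was 12 and 7, with a median of -0.20, and at day 8 14 and 6, with a median of -0.39. From day 4 to day 6, 8 of the 40 rose (Arc, Btg2, Ccn1, Egr2, Ier2, Nr4a1, Rgs2 and Zfp36) and none fell, and from day 6 to day 8, 3 fell (Ccn1, Ier2 and Nr4a1) and none rose. With normexp and quantile normalization, 12, 9 and 12 were lower on the 3 days against the control, with medians of -0.48, -0.11 and -0.27. The shares that rose and fell between days, like those of the 10 genes, are to be read against 2.83% and 1.01% of all genes. Egr3, Egr4 and Nr4a3 were not above background on any array. Ccn2, a matrix protein, was lower by log2 changes of -4.66, -4.41 and -3.89, and Hbegf, a ligand of the EGF receptor, by -3.87, -3.74 and -3.83. Rgs2, which shortens G protein signaling, was higher by 3.32, 4.65 and 4.50, Gem, a small GTPase, by 2.79, 2.69 and 2.57, and Tiparp, a target of the aryl hydrocarbon receptor, by 1.44, 1.46 and 1.66.

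Upstream, 7 genes of serum response factor and its partners were measured. At day 4 none was lower and 1, Myocd, was higher though not above background in the control, at day 6 none passed 2-fold, and at day 8 1, Srf, was lower and none higher, with medians of -0.40, -0.47 and -0.57. Normexp and quantile normalization put those medians at -0.12, -0.07 and -0.06. Srf itself had values of -0.91, -0.78 and -1.23, and the differences were 0.18, 0.32 and 0.06 for Elk1, a partner that ERK phosphorylates. Of 33 MAP kinase cascade genes, none was lower and 2 (Map3k1 and Rps6ka1) were higher at day 4, 4 (Mapk11, Rps6ka2 and Rps6ka4 among them) were lower and 1 (Map3k1) higher at day 6, and 5 (Map2k1, Mapk11, Mapk12, Rps6ka2 and Rps6ka4) were lower and 1 (Map3k1) higher at day 8, with medians of -0.34, -0.32 and -0.41. The lower genes at days 6 and 8 are 12.1% and 15.2% of the list, close to the 11.5% and 11.6% of all genes. At day 4 Mapk11 and Map2k1 lay just short of 2-fold, at -0.999 and -0.995, and with the array median as the scale 6 genes were lower and 1 higher on that day. With that scale 7 were lower at day 6 and 7 at day 8, and with normexp and quantile normalization 2 were on each of those days. The log2 values for the 3 days were -0.94, -1.55 and -1.67 for Rps6ka4, a kinase of CREB, and -0.999, -1.35 and -1.63 for Mapk11, a p38 kinase. Map3k1, which feeds JNK, was at 1.08, 1.44 and 1.71, and Map2k6, which activates p38, at 0.95, 0.77 and 0.32.

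Feedback inhibitors of the MAP kinases are themselves induced by signaling. Of 17 measured, 8 were lower and 3 higher (Dusp9, Dusp10 and Dusp14) at day 4, 6 and 2 (Dusp9 and Dusp14) at day 6, and 8 and 1 (Dusp9) at day 8, with medians of -0.94, -0.75 and -0.90. Dusp9 was not above background in the control. Normexp and quantile normalization left 6 lower on each day and 1, 1 and 0 higher, with medians of -0.66, -0.45 and -0.56. Dusp4, a nuclear phosphatase of ERK, changed by -3.55, -3.36 and -3.23, and Spry2, an inhibitor of receptor tyrosine kinase signaling, by -1.84, -1.99 and -2.31. Dusp1 changed by -3.51, -2.13 and -3.04, and it rose from day 4 to day 6, as did Spry4. Dusp14 was at 1.33, 1.09 and 0.85.

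Downstream, 26 reported AP-1 targets were measured. At day 4, 11 were lower and 4 higher, and at days 6 and 8 13 were lower and 4 higher, with medians of -0.68, -0.91 and -0.96. With normexp and quantile normalization, 8, 10 and 11 were lower and 2 higher on each day, and the medians were -0.38, -0.44 and -0.43. Plau, a protease that activates plasminogen, changed by -2.77 ± 0.28 at day 8, and Il6, a cytokine, by -2.55 ± 0.14. The metallothioneins Mt2 and Mt1, which bind metals, changed by 2.25 and 1.52. The other 2 counted as higher were the metalloproteinases Mmp9 and Mmp13, neither of which was above background in the control, and Mmp13 at days 6 and 8 compares background readings on both sides. Gclc, of glutathione synthesis, was at 0.58. From day 4 to day 6, 1 of the targets was lower (Mmp13, above background at day 4 only) and none higher, and from day 6 to day 8 none passed 2-fold.

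Heat shock genes were listed as a measure of general stress. Of 13 measured, 2 were lower and none higher on each day, with medians of -0.25, -0.30 and -0.36 (-0.20, -0.18 and -0.18, with 1 lower at day 8, after normexp and quantile normalization), and none passed 2-fold between OSKM-CMP arrays. The 2 of 13 are 15.4%, close to the 9.57%, 11.5% and 11.6% of all genes lower on the 3 days. Hspb1 and Hsph1, both chaperones, were the 2, at -2.93 and -1.10 on day 8. Hspa1a, the inducible Hsp70, was at -0.77 and Dnaja1, a co-chaperone, at 0.68.

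**Figure D5:**
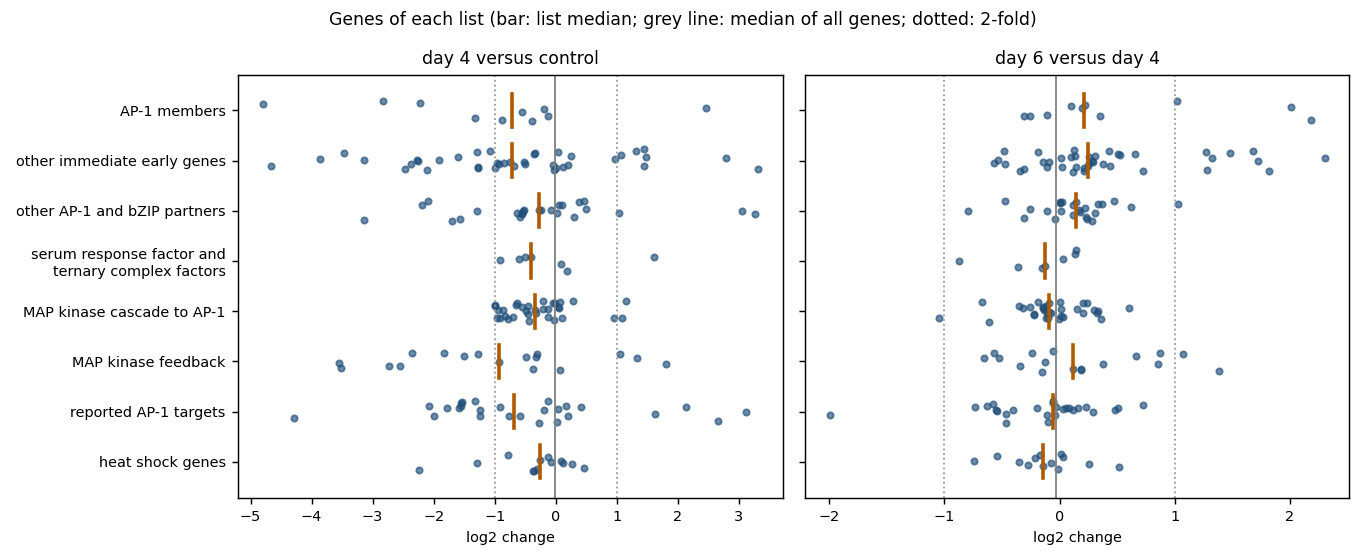
Log2 change of every measured gene (dots) and its median (orange bars) for the 10 genes and each pathway list, for day 4 against the control (left) and day 6 against day 4 (right), with the median of all genes as a grey line and 2-fold as dotted lines; the horizontal ranges differ. The other immediate early genes have a median of -0.71 and 0.25 in these comparisons, while the reported AP-1 targets have -0.68 at day 4.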

How the data were processed

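RNA from 4 cultures, 1 array each, was read on 1-colour Agilent mouse arrays with Cy3. Per the file headers, the authors ran Feature Extraction 10.7.3.1, while the submitters' processing notes name 9.5.3. The deposited values are spot intensities after background subtraction with an error per spot, and the normalized table deposited by the authors holds log2 values shifted by a constant per array. Positions are those of the files, on mm9.

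Control spots (3671) and outlier spots (87 to 106 per array) were left out, and no spot was saturated. The log2 of the processed signal was averaged over spots, and the 75th percentile of the array (388.5 to 410.9) was subtracted. Of 55675 probes, 35541 (63.8%) were well above background on at least 1 array and were kept, and between 56.6% and 59.6% were so on any single array. Probes were named through RefSeq (GRCm38.p6), where accessions named 26759, symbols 3819 and unique synonyms 639, leaving 24458 unnamed. A gene is the mean of its kept probes. The error is that of Feature Extraction's model, with spots taken as independent, and the median error of a difference was 0.20. A change of at least 2-fold was counted. With 1 array a condition there is no test, and the number of arrays limits precision. All arrays share 1 scan. The calculation was tested on simulated data.

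The list genes named were up to 3 with the largest fall and up to 3 with the largest rise at day 8, provided that both the control and the day 8 array were above background and that the 3 days had 1 sign, and the 3 genes nearest in pattern to Fos, Jun, Atf3 and Egr1. A few list genes that the rule or a small count would name are not reported here. The genes and lists were chosen with earlier results of these data known. Alternatives were quantile normalization, normexp (offset 50) with quantile normalization, the median of an array as its scale, the brightest probe of a gene, a floor under dim values, the authors' own normalized table, and either no filter or one that asked for every array. The tools were R 4.3.3 with limma 3.58.1, and Python 3.11.15 with matplotlib 3.10.9, scipy 1.17.1, pandas 2.3.3 and numpy 2.4.6.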

Additional observations from a re-analysis of the deposited data

How the results depend on the processing

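Every change of at least 2-fold among the 10 genes kept its direction under every alternative tried. Signs turned only well below 2-fold, for Jund, as given above, and from day 6 to day 8 with the array median as the scale for Jund (-0.03) and Fosl2 (-0.04). Of 120 recomputed counts and medians, 112 stayed within the tolerance (0.0917 on the log2 scale for a median), and 360 of 400 recomputed changes of single genes stayed within the error of that change. A count was within tolerance if 2 times the larger value was at most 3 times the smaller. The changed counts given below fall within that tolerance. All 11 probes were above background on every array, so the filters and the floor could not move these values. The authors' table, shifted by a constant per array, moved none, and the brightest probe bears on Fosl2 alone. Of 15 counts and medians per setting, 4 moved with the array median, 3 with normexp and quantile normalization and 1 with quantile normalization. Of 50 single changes, 13, 21 and 6 moved in that order. The median change at day 4 was -0.61 with quantile normalization, -0.60 with normexp and quantile normalization and -0.86 with the array median as the scale. At day 6 it was -0.29 with normexp and quantile normalization and -0.63 with the array median, and at day 8 it was -0.42 and -0.84. From day 6 to day 8 it was -0.41 with the array median. That scale also moved the median of all genes to -0.15, -0.17 and -0.30 at days 4, 6 and 8. It took the count of lower genes at day 4 from 4 to 5, and both quantile settings took the count of higher genes from day 4 to day 6 from 3 to 2. The search for the down, up and down course gave 4 to 6 genes, and its alternatives were chosen after seeing the data. For the gene lists, 332 of 420 values stayed within tolerance and 88 did not, and counts and medians under some of these settings stand beside each list.

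With 1 array a condition, differences between cultures could not be measured, and the error covers the array alone. Signal over background limits dim probes, such as that of Atf3 in the control, whose changes were smaller with normexp. No paired analysis was possible because there was a single array for each condition.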
